A study of Mus musculus with 4 samples.

Results

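The genes described here encode the voltage-gated sodium channels, the voltage-gated calcium channels with their accessory subunits, and the hyperpolarization-activated HCN channels. They were taken by rule as the protein-coding genes whose symbols begin with Scn and a number followed by a or b, with Cacna, Cacnb or Cacng, or with Hcn and a number. The rule found 44 of the 35963 genes in the count tables, of which 19680 are protein coding. The 44 are 10 sodium channel pore (alpha) genes, 4 sodium beta genes, 10 calcium channel pore (alpha1) genes, 4 alpha2delta genes, 4 calcium beta genes, 8 gamma genes and 4 HCN genes.

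Sodium channels carry the fast inward current of the action potential, and their beta subunits set channel placement and gating. Calcium channel pores admit calcium on depolarization, while alpha2delta and beta subunits bring the pore to the membrane. Several gamma genes encode TARPs, which traffic AMPA-type glutamate receptors rather than calcium channels, and HCN channels carry the inward current that paces firing after hyperpolarization. In the hypothalamus these currents shape the firing of the leptin-sensing neurons that control feeding.

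The cells were single hypothalamic cells sorted into 384-well plates from C57BL/6 mice carrying Lepr-cre and Rosa-LSL-tdTomato, so that a red fluorescent reporter marks cells in which the leptin receptor gene drives Cre. All 4 plates share that genotype: 3 came from fed animals and 1 from animals without food for 24 h. The reporter also marks a cell in which the Lepr promoter was active only earlier in life, and the number of animals behind each plate was not given. P-values therefore measure the spread between plates, which may be technical, and the fasted group is 1 plate. The test shares that spread across genes, so a p-value does not rest on the plates of its own gene alone. RNA was counted by CEL-seq2, which counts 1 tag at the 3′ end of each transcript, so a level in CPM, counts scaled to a common library total, holds no gene length.

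Of 1536 wells, 1279 held at least 1000 transcripts and passed a mitochondrial limit, with plate medians between 7750 and 13507 transcripts per well. Cells were clustered without the 44 channel genes, their partner genes or sex-linked genes, and clusters were named from marker lists, each name ending in -like. There were 191 AgRP-like neurons (82, 58 and 28 fed, 23 fasted), 193 other neurons, 235 tanycyte-like cells, 152 endothelial-like cells, 112 astrocyte-like cells, 102 cells like vascular and leptomeningeal cells (VLMC), 51 oligodendrocyte-like cells, 47 microglia or macrophage-like cells and 29 oligodendrocyte precursor-like cells. The plates differ in more than feeding: 84.4% of cells on the fasted plate had Xist and no Y-linked transcript, against 6.74% to 51.6% on the fed plates. Transcripts of other cells were also counted: the 6 AgRP markers summed to between 761 and 1580 CPM in tanycyte-like cells and 609 to 1343 CPM in other neurons, against 8172 to 13998 CPM in AgRP-like neurons.

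Every one of the 44 genes had a transcript on at least 3 of the 4 plates, and 35 passed the filter on low counts in at least 1 comparison. The 9 that passed in none were Cacna1f, Cacna1s, Cacna2d4, Cacng1, Cacng6, Scn10a, Scn11a, Scn4a and Scn4b, with 9 to 44 transcripts each in all kept cells. They include the pore genes of skeletal muscle (Scn4a, Cacna1s), retina (Cacna1f) and sensory neurons (Scn10a, Scn11a). For 24 of the 44 genes the GENCODE annotation places another gene on the opposite strand, and whether the counting used strand was not given in the sources used here. Scn7a, Hcn2, Cacng5 and Cacna1g overlap no annotated gene.

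Several members lie side by side. On chromosome 2 (GRCm38), Scn3a (65457118 to 65567627), Scn2a (65620771 to 65767447), Scn1a (66270778 to 66440840), Scn9a (66480080 to 66634962) and Scn7a (66673425 to 66784914) form a cluster, and Cacng5 and Cacng4 are neighbours on chromosome 11. Promoters are shown for Scn7a, Hcn2 and Cacng5, the genes with the largest log2 difference among those higher in tanycyte-like cells, in oligodendrocyte-like cells and in AgRP-like neurons. Each is the 250 bases before a RefSeq gene start in GRCm38.p6, written 5′ to 3′ on the gene's strand. Capitals mark the GC box GGGCGG or its reverse complement CCGCCC. The windows are chr2:66784911-66785160 on the minus strand for Scn7a, chr10:79716384-79716633 on the plus strand for Hcn2 and chr11:107915056-107915305 on the minus strand for Cacng5.
Scn7a: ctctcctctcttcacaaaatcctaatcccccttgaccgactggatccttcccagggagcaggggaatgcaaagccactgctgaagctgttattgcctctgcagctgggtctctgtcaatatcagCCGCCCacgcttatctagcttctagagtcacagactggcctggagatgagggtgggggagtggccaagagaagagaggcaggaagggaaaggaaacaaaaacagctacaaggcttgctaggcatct
Hcn2: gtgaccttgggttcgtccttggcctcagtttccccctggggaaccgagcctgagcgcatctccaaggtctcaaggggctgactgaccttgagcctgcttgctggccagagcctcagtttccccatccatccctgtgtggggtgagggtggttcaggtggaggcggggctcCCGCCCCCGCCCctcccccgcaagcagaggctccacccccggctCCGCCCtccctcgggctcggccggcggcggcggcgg
Cacng5: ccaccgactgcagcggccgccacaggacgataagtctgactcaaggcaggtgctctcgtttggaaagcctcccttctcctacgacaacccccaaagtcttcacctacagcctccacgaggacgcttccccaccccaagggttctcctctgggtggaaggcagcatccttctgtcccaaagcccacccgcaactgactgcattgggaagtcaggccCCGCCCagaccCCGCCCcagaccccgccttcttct
The Scn7a window is 53.2% GC with 1 GC box, the Hcn2 window 70.4% GC with 3, and the Cacng5 window 62.0% GC with 2.

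The RefSeq table held 43 windows for 32 of the 44 genes. Their median GC content was 56.8%, against 52.4% over all 32851 windows. A GC box on either strand was in 17 of the 43 (39.5%), against 32.7% of all windows. The TATA box TATAAA was in 2 (4.65%), in a Scn2a and a Cacna1d window, against 12.4% of all. The left (TTCAGCACC) and right (GGACAGCGC) parts of the RE1 element, which the neuronal repressor REST binds, were in no window of these genes and in 0.301% and 0.304% of all windows. The E-box CACGTG and the cyclic AMP element TGACGTCA were also in none, against 6.02% and 1.55% of all.

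**Figure D1:**
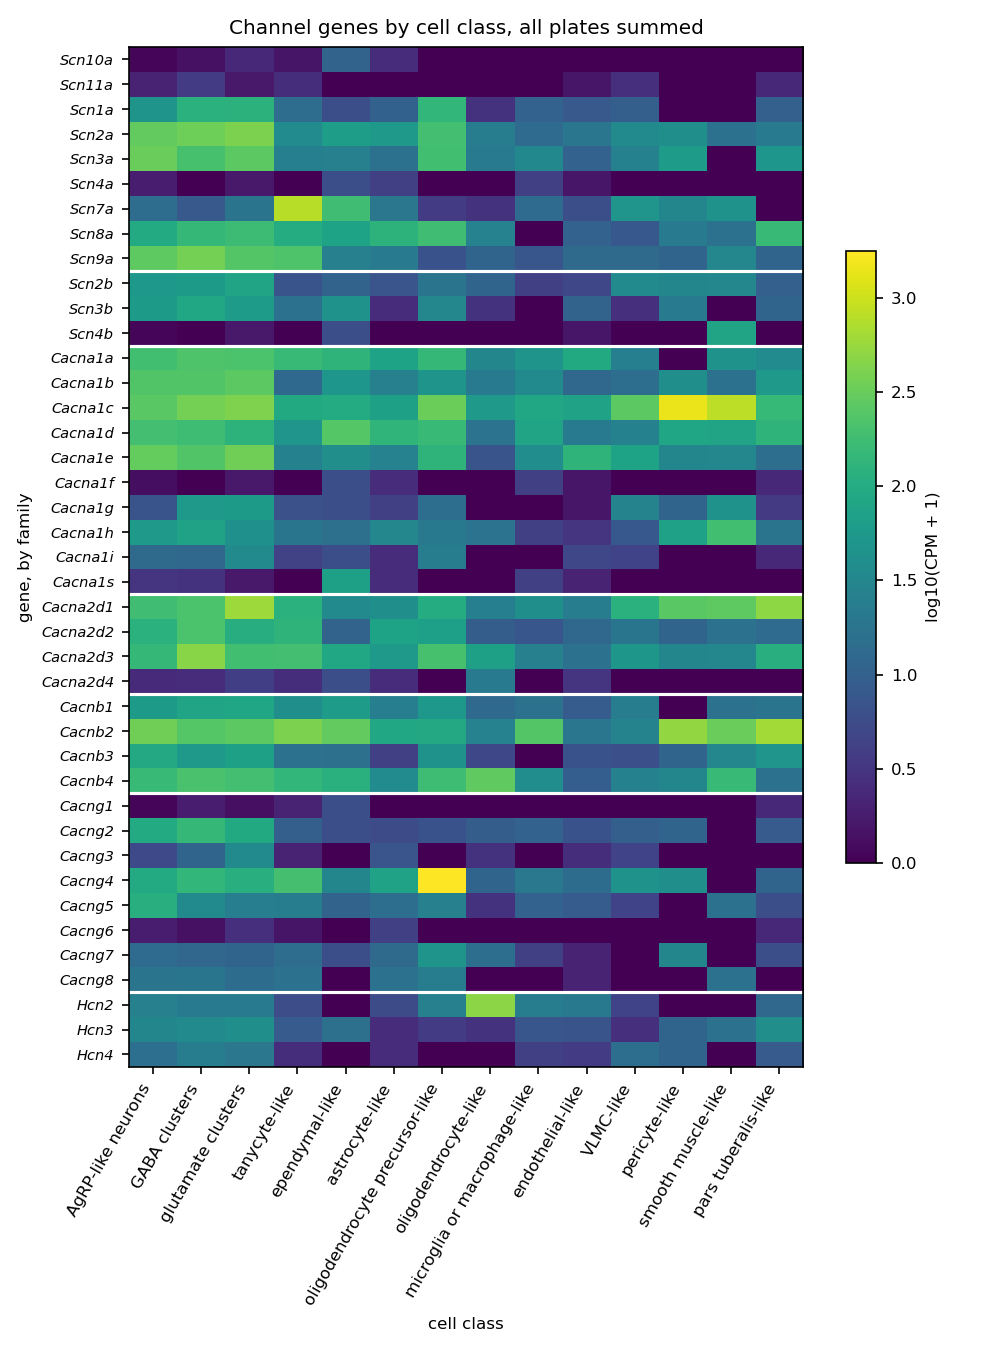
Level of the channel genes (rows, by family with white lines between families) in each neuron group and named cell class (columns), as log10(CPM + 1) with the 4 plates summed. The 4 brightest squares outside neurons are Cacng4 in oligodendrocyte precursor-like cells (1771 CPM), Cacna1c in pericyte-like (1439.7 CPM) and smooth muscle-like cells (831 CPM), and Scn7a in tanycyte-like cells (789 CPM).

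The first comparison asked how the channel genes differ between neurons and the other reporter cells. Of 35 genes tested, 31 were higher in neurons, where 27.3% of all genes tested were higher, and 1 was lower, where 30.5% of all were lower. The median log2 difference was 1.99 over the channel genes and -0.01 over all genes tested. Each of the 32 differences had the same direction on 4 of 4 plates (edgeR quasi-likelihood test, plate as block, Benjamini-Hochberg adjustment over all genes).

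Cacng2, the TARP stargazin, had the largest difference: 67.9, 102 and 127 CPM (fed) and 127 CPM (fasted) in neurons, and 3.27, 8.14 and 9.17 CPM (fed) and 9.37 CPM (fasted) in the other cells. No neuron value came near the other cells, and the log2 difference was 3.95 (SE 0.18, adjusted p = 2.13e-06). Cacna1b, the N-type pore that triggers transmitter release, differed by 3.51 (SE 0.16, adjusted p = 2.14e-06).

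Among the 12 genes with the largest differences were also the sodium pores Scn3a (3.23), Scn2a (3.17) and Scn1a (2.49), the sodium beta genes Scn2b (2.55) and Scn3b (2.52), the gamma genes Cacng3 (2.98) and Cacng5 (2.58) and the R-type pore Cacna1e (2.57), all log2 differences. Hcn4, Cacnb3, Scn9a, Cacna1i, Cacna1g, Hcn3, Cacna1h, Cacnb1, Cacna2d2, Cacna1d, Cacna2d1, Cacna2d3, Cacng8, Cacnb4, Cacna1a, Cacna1c, Scn8a and Cacnb2 were also higher, by 0.63 (Cacnb2) to 2.43 (Hcn4) on the log2 scale. Plates overlapped for Cacnb2 and Cacng8 alone among the 32.

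Scn7a, an atypical sodium channel known as a sodium sensor in glia, was the 1 gene lower in neurons. It was at 11.4, 14.2 and 12.8 CPM (fed) and 13.6 CPM (fasted) in neurons and at 161.5, 292 and 399.6 CPM (fed) and 57.1 CPM (fasted) in the other cells, a log2 difference of -3.79 (SE 0.43, adjusted p = 0.000152). Its neighbours Scn3a, Scn2a, Scn1a and Scn9a were all among the genes higher in neurons. Cacng7 (0.44, adjusted p = 0.292), Cacng4 (-0.32, adjusted p = 0.422) and Hcn2 (-0.55, adjusted p = 0.0557) did not pass the threshold, and the latter pair had their highest levels in the oligodendrocyte lineage. Cacnb2 lost the call under at least 1 other alternative run (highest adjusted p = 0.0812). Hcn2 without fed plate 1 (-0.77, adjusted p = 0.00545) and Cacng4 without fed plate 1 (-0.73, adjusted p = 0.00141) passed the threshold.

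Partner lists, also chosen with earlier results known, gave these counts. All 4 tested genes of the sodium leak complex were higher in neurons: Fam155a (2.17), Unc80 (2.12), Nalcn, the leak pore (1.78), and Unc79 (1.56). Of 11 calcium channel partners 9 were higher and 0 lower, with the active-zone genes Rims1 (2.75), Rimbp2 (2.49) and Rims2 (1.63) and calmodulin gene Calm2 (1.84). Of 10 sodium channel partners 6 were higher, led by Sptbn4 (3.06), Fgf13 (2.42) and Ank3 (2.31), and 2 were lower, Fgf11 (-3.15) and Nrcam (-0.62). Of 11 calcium pumps and exchangers 5 were higher and 3 lower, and both tested HCN partners, Mrvi1 (-5.23) and Pex5l (-1.44), were lower.

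Within AgRP-like neurons, which release the hunger peptides AgRP and NPY, the 44 genes together made up 3648, 4119 and 4416 CPM (fed) and 4609.9 CPM (fasted). The pore genes contributed most: sodium alpha genes summed to 1066 ± 181 CPM (SD, n = 4) and calcium alpha1 genes to 1277 ± 173 CPM. Among sodium pores, Scn3a (324 ± 95.3 CPM), Scn2a (297 ± 59.0) and Scn9a (278 ± 17.5) lay within each other's spread, and Scn8a (96.9 ± 11.6), Scn1a (51.8 ± 24.8) and Scn7a (14.9 ± 7.88) were below them. Among calcium pores the order was Cacna1e (309 ± 41.2), Cacna1c (271 ± 38.2), Cacna1b (235 ± 46.4), Cacna1d (195 ± 45.2) and Cacna1a (190.1 ± 38.9), with each neighbour inside the spread of the next, followed by the T-type pore Cacna1h (55.8 ± 1.56).

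Cacnb2 (353 ± 61.1 CPM) led the beta genes, ahead of Cacnb4 (157 ± 19.8). Of the HCN genes, Hcn3 was at 30.2 ± 9.44 CPM, Hcn2 at 24.6 ± 11.8 and Hcn4 at 14.3 ± 2.80, and the spread of Hcn2 covered both neighbours.

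The next comparison set AgRP-like neurons against the other neurons. Of 35 genes tested, 5 were higher in AgRP-like neurons (background 6.73% of all genes) and 11 were lower (background 8.65%), with a median log2 difference of -0.25 against 0.00 over all genes. All 16 had the same direction on 4 of 4 plates. Cacna1g, Cacna2d3, Cacna2d1, Cacng5 and Cacng3 were among the 7 whose plates did not overlap.

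Cacng5 was the most raised, at 148, 96.5 and 109 CPM (fed) and 63.6 CPM (fasted) in AgRP-like neurons. In other neurons it was at 35.4, 25.01 and 31.7 CPM (fed) and 22.6 CPM (fasted). The lowest AgRP-like plate was thus above the highest plate of other neurons, and the log2 difference was 1.87 (SE 0.15, adjusted p = 1.04e-07). The other genes higher in AgRP-like neurons were Cacnb3 (0.65, adjusted p = 0.0114), Scn3a (0.55, adjusted p = 0.00160), Cacnb2 (0.51, adjusted p = 0.00228) and the L-type pore Cacna1d (0.50, adjusted p = 0.00403), and their plates overlapped.

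Cacna1g is a T-type pore that opens at low voltage. Its level in AgRP-like neurons was 6.99, 1.79 and 11.4 CPM (fed) and 5.55 CPM (fasted), and in other neurons 44.0, 53.0 and 69.7 CPM (fed) and 48.9 CPM (fasted). No plate overlapped, and the log2 difference was -3.07 (SE 0.28, adjusted p = 5.63e-07).

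The 3 alpha2delta genes tested were all lower; the family includes the targets of gabapentin-type drugs. Cacna2d3 was at 132, 164 and 197 CPM (fed) and 108 CPM (fasted) in AgRP-like neurons and at 285, 285 and 340.4 CPM (fed) and 319.6 CPM (fasted) in other neurons. Cacna2d1 was at 174, 140.0 and 157 CPM (fed) and 238 CPM (fasted), against 268, 583 and 371 CPM (fed) and 411 CPM (fasted). Plates of the 2 classes did not overlap for either gene, and the log2 differences were -1.02 (SE 0.12, adjusted p = 1.48e-05) for Cacna2d3 and -1.14 (SE 0.25, adjusted p = 0.0314) for Cacna2d1. Cacna2d2 differed by -0.39 (adjusted p = 0.0374), and the family summed to 445 ± 25.2 CPM in AgRP-like against 872 ± 134 CPM in other neurons.

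The genes lower in AgRP-like neurons also included Cacng3 (-2.45, adjusted p = 2.85e-05), Scn1a (-1.17, adjusted p = 0.00159), the T-type pore Cacna1i (-0.84, adjusted p = 0.0255), Scn8a (-0.61, adjusted p = 0.00255) and the L-type pore Cacna1c (-0.48, adjusted p = 0.00604). Cacna1i and Cacna2d2 lost the call without fed plate 1 (adjusted p = 0.0748 and 0.0788). Cacna1c, Cacna1i, Cacna2d2 and Scn8a lost the call without fed plate 2 (adjusted p = 0.0929, 0.164, 0.0544 and 0.0543). Cacna2d1, Cacna2d2 and Cacnb3 lost the call without fed plate 3 (adjusted p = 0.10, 0.123 and 0.115). Cacna2d1 and Cacna2d2 lost the call without the fasted plate (adjusted p = 0.115 and 0.124). Cacna1c, Cacna1d, Cacna1i, Cacna2d2, Cacnb2, Cacnb3, Cacng3, Scn1a and Scn3a lost the call under at least 1 other alternative run (highest adjusted p = 0.0806 to 0.377). Cacnb1 without fed plate 3 (-0.62, adjusted p = 0.0319), Cacna1e without the fasted plate (0.32, adjusted p = 0.0325) and Scn2a without the fasted plate (-0.29, adjusted p = 0.0455) passed the threshold. Scn9a (-0.07, adjusted p = 0.732) and Cacna1b (-0.03, adjusted p = 0.915) were among the 19 genes that did not pass.

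Of partner genes in AgRP-like against other neurons, 5 of 9 calcium pumps and exchangers were lower and 0 higher: Atp2b4 (-1.28), Slc8a3 (-1.02), Slc24a2 (-0.93), Atp2b1 (-0.88) and Slc24a3 (-0.65). Of 10 calcium channel partners, the RGK GTPases Gem (1.30) and Rrad (1.24), which reduce calcium current, were higher, and Cabp1 (-2.41), Rims1 (-1.04) and Calm3 (-0.35) were lower. Of 9 sodium channel partners, Fgf13 (0.79) was higher and Fgf12 (-0.82) and Fgf14 (-0.47) were lower. Nalcn (-0.34) was the 1 gene of 4 in the leak complex that was lower.

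**Figure D2:**
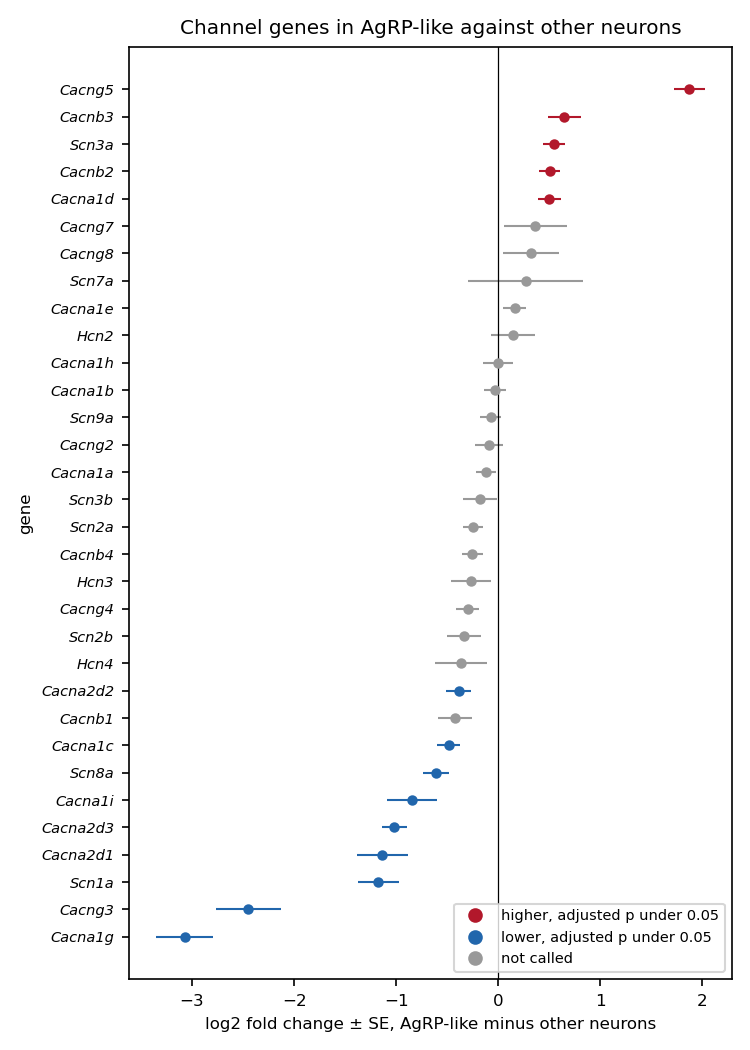
Log2 difference (AgRP-like minus other neurons, horizontal axis, point and bar giving the estimate ± SE) of channel genes tested, in order of size. Red marks genes higher and blue genes lower at an adjusted p under 0.05, and grey those not called, with Cacng5 at the top (1.87) and Cacna1g at the bottom (-3.07).

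The other neurons were split by whether a cluster held more transcripts of Slc32a1 (the vesicular GABA transporter, 101 cells) or Slc17a6 (a vesicular glutamate transporter, 92 cells). Some glutamate clusters held both. The cluster led by Pomc (30 cells) held 72 Slc32a1 and 136 Slc17a6 transcripts. Those led by Rasl11b (20 cells) and by Ebf3 (14 cells) held 99 and 150, and 53 and 172. Each GABA cluster held 1 to 4 Slc17a6 transcripts. In the GABA cluster led by Ebf1 (10 cells), 3 of 8 oligodendrocyte markers were raised. Of 34 channel genes tested, 6 were higher in the GABA clusters (background 2.36%) and 5 lower (background 3.42%), with a median log2 difference of -0.10 against 0.01 over all genes. The 11 differences had 1 direction on 4 of 4 plates. The 3 strongest by p were alpha2delta genes, and they did not run in 1 direction.

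Cacna2d3 was at 440.0, 394 and 507 CPM (fed) and 481 CPM (fasted) in the GABA clusters and at 87.7, 210.2 and 179.7 CPM (fed) and 213 CPM (fasted) in the glutamate clusters. Cacna2d2 was at 184, 272 and 201 CPM (fed) and 196 CPM (fasted) in GABA clusters and 117, 95.8, 117 and 90.1 CPM in glutamate clusters. Cacna2d1 ran the other way, at 196, 306 and 163 CPM (fed) and 230.3 CPM (fasted) in GABA clusters and 360.4, 774, 572 and 530.2 CPM in glutamate clusters. No plate of 1 side overlapped the other side for any of the 3 genes. The log2 differences were 1.40 (SE 0.19, adjusted p = 0.000552) for Cacna2d3, 1.01 (SE 0.15, adjusted p = 0.000181) for Cacna2d2 and -1.34 (SE 0.14, adjusted p = 1.6e-06) for Cacna2d1, and all 3 were past the threshold under each alternative setting tried.

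**Figure D3:**
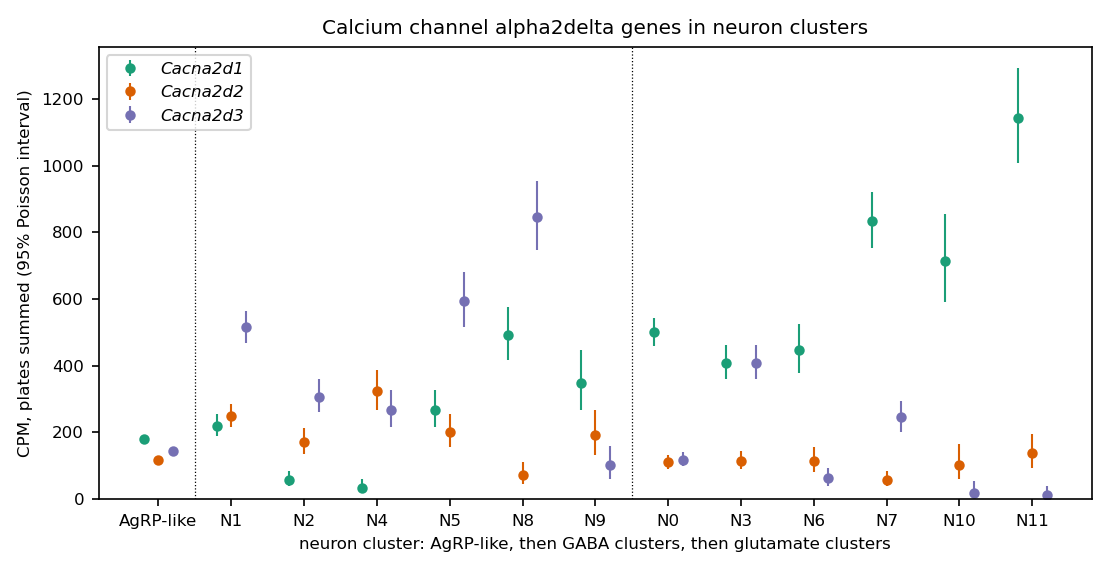
Level (CPM, plates summed, bars giving the 95% Poisson interval) of Cacna2d1, Cacna2d2 and Cacna2d3 in AgRP-like neurons and in 12 clusters of other neurons, N0 to N11, with GABA clusters in the middle and glutamate clusters at the right. Cacna2d1 is highest in N11 (led by Gng8 and Opn5) and Cacna2d3 in N8 (GHRH-like).

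The other genes higher in GABA clusters were Cacna1h (0.86, adjusted p = 0.0160), Cacng2 (0.66, adjusted p = 0.0113), Scn9a (0.59, adjusted p = 0.0318) and Cacna1d (0.52, adjusted p = 0.0499). Those lower were Cacng3 (-1.77, adjusted p = 0.00291), Cacna1i (-1.61, adjusted p = 0.00421), Cacna1e (-0.58, adjusted p = 0.00735) and Scn3a (-0.47, adjusted p = 0.0422). The 2 T-type pores Cacna1h and Cacna1i thus differed in opposite directions, with no overlap between plates for either. Each of these 8 calls ended without at least 1 plate and in Xist-only cells (those where no Y-linked transcript was counted). Xist-only cells were 3, 13 and 20 (fed) and 9 (fasted) in GABA clusters and 3, 16, 18 and 12 in glutamate clusters. Fed plate 1, under the limit of 5 cells, did not enter that run, so fewer cells and sex makeup cannot be told apart there. Cacna1d, Cacna1e, Cacna1h, Scn3a and Scn9a lost the call without fed plate 1 (adjusted p = 0.177, 0.0659, 0.106, 0.216 and 0.0522). Cacng2, Cacng3, Scn3a and Scn9a lost the call without fed plate 2 (adjusted p = 0.0741, 0.0582, 0.205 and 0.183). Cacna1d, Cacna1h, Cacna1i, Cacng2, Scn3a and Scn9a lost the call without fed plate 3 (adjusted p = 0.261, 0.119, 0.142, 0.117, 0.10 and 0.428). Cacna1d and Cacna1h lost the call without the fasted plate (adjusted p = 0.295 and 0.0676). Cacna1d, Cacna1e, Cacna1h, Cacna1i, Cacng2, Scn3a and Scn9a lost the call by DESeq2 (adjusted p = 0.0910 to 0.537). Cacna1d, Cacna1e, Cacna1h, Cacna1i, Cacng2, Cacng3, Scn3a and Scn9a lost the call in Xist-only cells (adjusted p = 0.0566 to 0.890). Cacna1d, Cacna1e, Cacna1h, Cacng2, Scn3a and Scn9a lost the call with no replicate block (adjusted p = 0.0878 to 0.737). Cacna1d lost the call under at least 1 other alternative run (highest adjusted p = 0.0747).

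Of partner genes, Fgf13 (-1.48), Nrcam (-0.63), Fgf12 (-0.44) and the HCN partner Pex5l (-1.54) were lower in GABA clusters and Rims1 (0.51) was higher. None of 4 leak complex genes and none of 9 calcium pumps and exchangers passed.

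Single neuron clusters were too small to test and are described from transcripts pooled over plates. Cacna2d1 was at 1143 CPM (95% interval 1008 to 1292) in 7 cells led by Gng8 and Opn5, 835 CPM in 14 premammillary-like cells led by Tac1, 714 CPM in 7 Kiss1-like cells and 499.9 CPM in 30 cells led by Pomc. In GABA clusters led by Crabp1 and by Aldoc it was at 33.7 and 58.6 CPM. Cacna2d3 was highest in 11 GHRH-like cells at 846 CPM (95% interval 747 to 954), and at 13.3 and 18.3 CPM in the Gng8 and Kiss1-like clusters, where Cacna2d1 was high. Scn9a ranged from 113 CPM in premammillary-like cells to 546 CPM (95% interval 498 to 598) in 30 GABA cells led by Ptger3 and Lepr. These intervals cover counting error only.

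Outside neurons, each class was set against the remaining non-neuronal cells on the same plates, so the comparisons share cells. Tanycyte-like cells, glia that line the third ventricle, had 10 of 28 genes higher (background 12.1%) and 5 lower (background 17.3%), with a median log2 difference of 0.24 against -0.02 over all genes. Their 15 differences kept 1 direction on 4 of 4 plates, and for 12 of them the plates did not overlap. In the other classes the plates did not overlap for 14 of 15 calls in oligodendrocyte precursor-like cells, 14 of 15 in oligodendrocyte-like cells, 11 of 11 in astrocyte-like cells, 16 of 17 in endothelial-like cells, 7 of 12 in VLMC-like cells and 5 of 7 in microglia or macrophage-like cells.

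Scn7a was at 1075, 666 and 1075 CPM (fed) and 291 CPM (fasted) in tanycyte-like cells. The other classes tested held 45.4 ± 41.8 CPM (VLMC-like, SD, n = 4) or less on average. Ependymal-like cells, too few to test, were at 179 CPM (95% interval 125 to 248) over 24 cells. The log2 difference was 5.17 (SE 0.40, adjusted p = 4.3e-05). A Scn7a transcript was found in 34.9% of tanycyte-like cells (median 6917 transcripts) and in 3.95% of endothelial-like cells (median 10879.5). Within tanycyte-like cells, 38 cells led by Fndc3c1 and Col25a1 held 2532 CPM, with a transcript in 89.5% of cells, against 368 and 86.0 CPM in the clusters led by Rax and by Crym.

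Scn9a, the chromosomal neighbour of Scn7a, was at 198, 227 and 243 CPM (fed) and 209 CPM (fasted) in tanycyte-like cells, a log2 difference of 3.79 (SE 0.27, adjusted p = 2.97e-05). Cacnb2, a calcium beta subunit, was at 368, 395 and 388 CPM (fed) and 453 CPM (fasted), with a transcript in 83.0% of cells and a difference of 1.47 (SE 0.26, adjusted p = 0.00271). The other genes higher were Cacna2d2 (2.09, adjusted p = 0.000809), Cacng8 (2.00, adjusted p = 0.0301), Cacna2d3 (1.58, adjusted p = 0.000832), Cacng5 (1.36, adjusted p = 0.0495), Cacnb4 (1.18, adjusted p = 0.0474), Cacna1a (0.86, adjusted p = 0.0226) and Scn8a (0.73, adjusted p = 0.0276). The 5 lower included Hcn2 (-3.51, adjusted p = 0.00201), Cacna1b (-1.33, adjusted p = 0.0270), Cacna1c (-1.06, adjusted p = 0.00901) and Cacna1d (-0.76, adjusted p = 0.0216). Without the Col25a1 cluster, Cacna2d2 (0.97, adjusted p = 0.0683) and Cacnb4 (0.16, adjusted p = 0.813) were no longer past the threshold. Cacng5 lost the call without fed plate 1 (adjusted p = 0.0633). Cacna1a, Cacna1b, Cacna1d, Cacnb4, Cacng5, Cacng8 and Scn8a lost the call without fed plate 2 (adjusted p = 0.0828, 0.0553, 0.105, 0.0616, 0.105, 0.0567 and 0.10). Cacna1a, Cacna1b, Cacna1c, Cacna1d, Cacnb4, Cacng5 and Cacng8 lost the call without fed plate 3 (adjusted p = 0.0925, 0.135, 0.0672, 0.104, 0.110, 0.0517 and 0.0733). Cacna1a, Cacna1b, Cacna1c, Cacna1d, Cacnb4, Cacng5 and Scn8a lost the call without the fasted plate (adjusted p = 0.10, 0.0520, 0.0508, 0.0673, 0.0914, 0.240 and 0.101). Cacna1a, Cacna1b, Cacna1d, Cacna2d2, Cacna2d3, Cacnb4, Cacng5, Cacng8, Scn8a and Scn9a lost the call under at least 1 other alternative run (highest adjusted p = 0.0895 to 0.839). Scn3a without fed plate 1 (-0.85, adjusted p = 0.0495) passed the threshold.

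Oligodendrocyte precursors divide and give rise to myelinating cells. In oligodendrocyte precursor-like cells 5 markers of committed precursors (1 at 0 on each plate) summed to 1915 to 2655 CPM, and 7 precursor markers to 13698 to 14434 CPM. Both lists hold Gpr17, and the share of committed cells was not tested. The 44 genes summed to 4271 ± 72.5 CPM (SD, n = 3 plates) in the precursor-like cells. That lies within the range of the 4 plates of AgRP-like neurons (4198 ± 419 CPM), a difference that was not tested, and above the 1423 ± 291 CPM of oligodendrocyte-like cells (n = 3). The totals differ in makeup. Gamma genes, which include TARPs, made up 1872 ± 52.8 CPM of the precursor-like sum and 334 ± 22.8 CPM of the AgRP-like sum. Of 28 genes 12 were higher (background 9.59%) and 3 lower (background 15.9%) than in the remaining non-neuronal cells, with a median log2 difference of 0.95 against -0.16. Cacng4, a TARP, was at 1767 and 1849 CPM (fed plates 2 and 3) and 1702 CPM (fasted), and all 29 cells held a transcript. In oligodendrocyte-like cells it was at 16.8 and 24.4 CPM (fed plates 2 and 3) and 8.13 CPM (fasted), in 9.80% of cells, and the log2 difference of the precursor-like cells was 4.39 (SE 0.29, adjusted p = 1.05e-12).

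Sodium pores were also higher in the precursor-like cells. Scn1a was at 127 and 124 CPM (fed plates 2 and 3) and 172 CPM (fasted), with a log2 difference of 3.44 (SE 0.43, adjusted p = 2.42e-07). Scn3a was at 167 and 186 CPM (fed plates 2 and 3) and 196 CPM (fasted) (2.74, SE 0.33, adjusted p = 1.09e-07) and Scn2a at 215 and 142 CPM (fed plates 2 and 3) and 205 CPM (fasted) (2.28, SE 0.32, adjusted p = 2.19e-06). The rest were Cacna1i (2.91), the TARP Cacng7 (2.25), Cacna1e (1.76), Scn8a (1.30), Cacna1c (1.07), Cacna1d (1.06), Cacna2d3 (0.96) and Cacnb4 (0.85), as log2 differences. Scn7a (1 transcript), Scn9a (2 transcripts) and Cacnb2 (-1.53) were lower. Cacna1c, Cacna1d and Cacng7 lost the call without fed plate 2 (adjusted p = 0.112, 0.208 and 0.126). Cacna1d, Cacnb4 and Scn8a lost the call without fed plate 3 (adjusted p = 0.0998, 0.260 and 0.0684). Cacna2d3 and Cacnb4 lost the call without the fasted plate (adjusted p = 0.0926 and 0.205). Cacna1c, Cacna1d, Cacna1i, Cacna2d3, Cacnb4, Scn2a, Scn3a and Scn8a lost the call under at least 1 other alternative run (highest adjusted p = 0.0770 to 0.951). Cacnb3 without the fasted plate (2.23, adjusted p = 0.00591) passed the threshold.

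Oligodendrocyte-like cells, which make myelin, had 2 of 27 genes higher (background 8.57%) and 13 lower (background 24.3%), with a median of -1.66 against -0.48. Hcn2 was at 687 and 706 CPM (fed plates 2 and 3) and 436 CPM (fasted) and was found in 88.2% of the cells, whose median was 9016 transcripts. In tanycyte-like cells it was found in 3.40% at a median of 6917 transcripts and in precursor-like cells in 24.1% at 11077. The log2 difference was 5.98 (SE 0.34, adjusted p = 1.27e-64). With 3 plates that fit left 2 residual degrees of freedom, so so small a p-value rests mostly on spread shared across genes. Cacnb4, at 402 and 170.5 CPM (fed plates 2 and 3) and 266 CPM (fasted), was the other gene higher, by 1.94 (SE 0.32, adjusted p = 2.14e-08). The HCN trafficking partner Pex5l was higher in the same cells by 4.73 (SE 0.70, adjusted p = 0.00298), as were the node of Ranvier genes Nfasc (3.44) and Ank3 (2.95) and the exchanger Slc24a2 (5.96). More partners were lower than higher. Of 9 sodium channel partners 2 were higher and 5 lower, and of 10 calcium pumps and exchangers 2 were higher and 5 lower. Of 7 calcium channel partners 0 were higher and 3 lower, and of 2 HCN partners 1 was higher and 1 lower.

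Genes lower in oligodendrocyte-like cells included Cacng4 (-3.94), Cacnb2 (-3.54), Scn8a (-3.41), Cacna2d1 (-2.59), Scn9a (-2.50), Cacna2d2 (-2.38), Cacna1d (-2.31), Scn2a (-1.66), Cacna1a (-1.60) and Cacna1c (-1.43). Scn7a (1 transcript), Scn1a (1 transcript) and Cacna1e (3 transcripts) were also lower. Cacna2d2 and Scn1a lost the call without fed plate 2 (adjusted p = 0.0602 and 0.110). Cacna1a, Cacna1c, Scn1a and Scn2a lost the call without fed plate 3 (adjusted p = 0.109, 0.0932, 0.116 and 0.262). Cacna1a, Cacna1c, Cacna1d, Cacna1e, Cacna2d1, Cacna2d2, Scn1a, Scn2a and Scn8a lost the call without the fasted plate (adjusted p = 0.252, 0.238, 0.400, 0.132, 0.547, 0.222, 0.358, 0.516 and 0.105). Cacna1a, Cacna1c, Cacna1d, Cacna1e, Cacna2d2, Scn1a, Scn2a and Scn7a lost the call under at least 1 other alternative run (highest adjusted p = 0.0569 to 0.206).

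**Figure D4:**
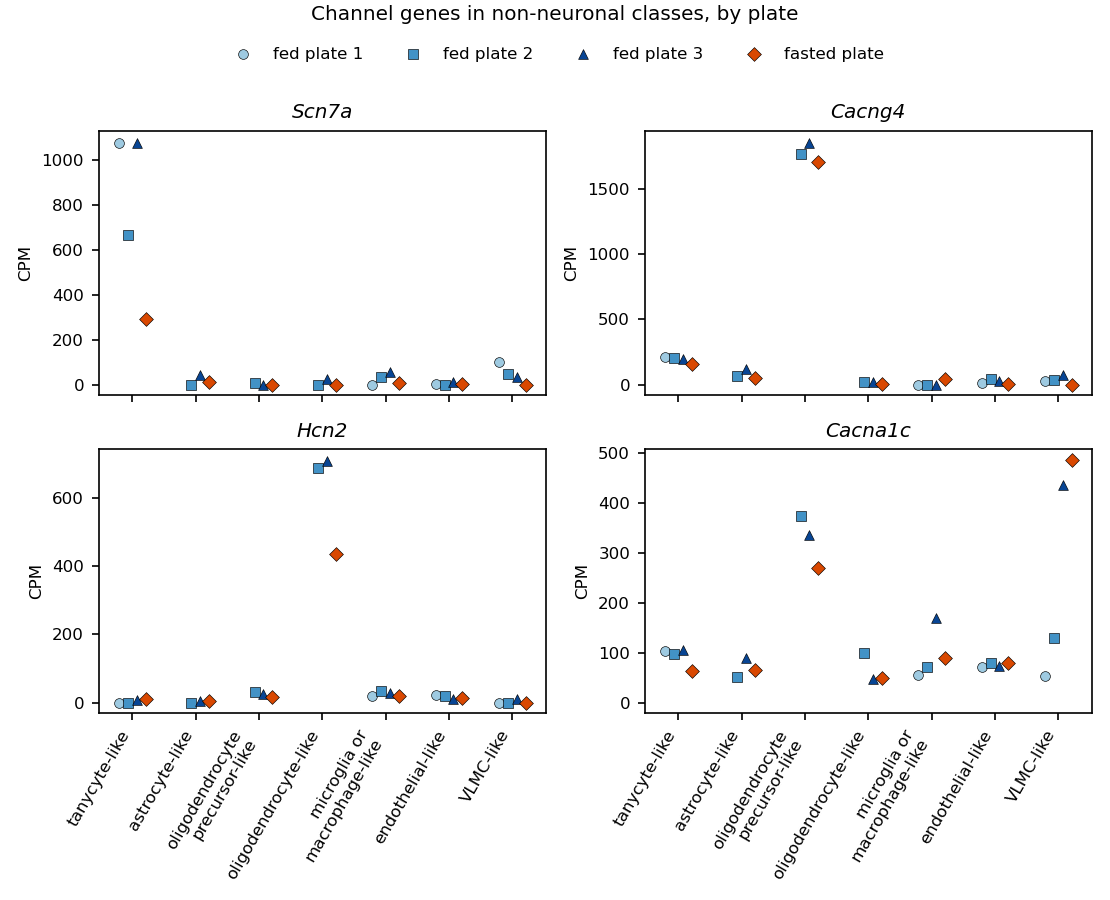
Level (CPM, vertical axes on separate linear scales) of Scn7a, Cacng4, Hcn2 and Cacna1c in 7 non-neuronal classes, with 1 point per plate. Scn7a is highest in tanycyte-like cells (291 to 1075 CPM), Cacng4 in oligodendrocyte precursor-like cells (1702 to 1849 CPM) and Hcn2 in oligodendrocyte-like cells (436 to 706 CPM), while Cacna1c spans 54.2 to 487 CPM in VLMC-like cells.

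Endothelial-like and VLMC-like cells, which line vessels and meninges, held few channel transcripts. In endothelial-like cells 1 of 31 genes was higher (background 11.3%) and 16 lower (background 20.2%), with a median of -1.57 against -0.18. The 1 gene higher was Cacna1e, at 152, 60.2 and 48.1 CPM (fed) and 98.8 CPM (fasted) and a log2 difference of 1.52 (SE 0.50, adjusted p = 0.0489). It was higher on 3 of 4 plates, and 57 cells led by Ch25h and Lcn2, all from fed plate 1, held 203 CPM. Without those cells the difference was 0.64 (adjusted p = 0.207). The genes lower were Cacna1h (-3.64), Cacnb2 (-3.54), Scn7a (-5.73), Cacnb4 (-3.23), Cacng4 (-3.12), Scn8a (-2.74), Cacna2d1 (-2.40), Scn9a (-2.32), Cacna2d3 (-2.31), Cacna2d2 (-2.02), Cacna1d (-1.57), Scn3a (-1.53), Cacnb1, Cacna1c, Cacna1g (1 transcript) and Cacng7 (2 transcripts). Cacna1e and Cacnb1 lost the call without fed plate 1 (adjusted p = 0.0569 and 0.0827). Cacna1e and Cacng7 lost the call without fed plate 2 (adjusted p = 0.0786 and 0.130). Cacnb1 and Cacng7 lost the call without fed plate 3 (adjusted p = 0.139 and 0.144). Cacna1e, Cacnb1 and Cacng7 lost the call without the fasted plate (adjusted p = 0.181, 0.0784 and 0.0601). Cacna1e, Cacna1g, Cacnb1, Cacng7 and Scn9a lost the call under at least 1 other alternative run (highest adjusted p = 0.0570 to 0.0935). Hcn2 without fed plate 1 (-1.79, adjusted p = 0.00825) and Cacnb3 without fed plate 3 (-2.37, adjusted p = 0.0406) passed the threshold.

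In VLMC-like cells 2 of 25 genes were higher (background 7.16%) and 10 lower (background 11.9%), with a median of -1.07 against -0.13. Cacna1g, at 23.2, 11.8 and 29.1 CPM (fed) and 69.5 CPM (fasted), differed by 2.58 (SE 0.76, adjusted p = 0.0139) on 16 transcripts. Scn2b, at 38.7, 53.1 and 29.1 CPM (fed) and 0 CPM (fasted), differed by 1.87 (SE 0.63, adjusted p = 0.0332) on 20 transcripts and was higher on 3 of 4 plates. Those lower were Hcn2 (2 transcripts), Scn8a (-3.23), Cacnb2 (-3.07), Scn9a (-2.56), Scn7a (-2.33), Cacng4 (-2.06), Cacna1a (-2.04), Cacna2d2 (-1.91), Cacnb4 (-1.69) and Cacna1d (-1.37). Cacna1c did not pass, and its plates spread widely, 54.2, 129.7 and 437 CPM (fed) and 487 CPM (fasted). Scn2b lost the call without fed plate 1 (adjusted p = 0.130). Cacna1d, Cacna2d2 and Scn2b lost the call without fed plate 2 (adjusted p = 0.250, 0.116 and 0.250). Cacna1g, Scn2b and Scn9a lost the call without fed plate 3 (adjusted p = 0.0593, 0.103 and 0.0662). Cacna1d and Cacna1g lost the call without the fasted plate (adjusted p = 0.0959 and 0.129). Cacna1d, Cacna1g, Cacna2d2, Cacng4, Scn2b and Scn7a lost the call under at least 1 other alternative run (highest adjusted p = 0.0602 to 0.617). Cacna1e without fed plate 1 (1.22, adjusted p = 0.0209) and Cacna1c without fed plate 1 (1.14, adjusted p = 0.000494) passed the threshold.

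Astrocyte-like cells had 2 of 28 genes higher (background 12.5%) and 9 lower (background 17.6%), with a median of -0.48 against -0.12. Cacna1d (119.9 and 95.1 CPM (fed plates 2 and 3) and 164 CPM (fasted)) and Scn8a (172 and 123 CPM (fed plates 2 and 3) and 99.0 CPM (fasted)) were higher, by 0.98 (SE 0.28, adjusted p = 0.00360) and 0.96 (SE 0.28, adjusted p = 0.00448). The genes lower were Hcn2 (3 transcripts), Scn7a (-3.38), Scn9a (-1.78), Cacna2d1 (-1.54), Cacnb2 (-1.43), Cacnb4 (-1.31), Cacng4 (-1.30), Cacna1c (-1.21) and Cacna2d3 (-0.99). Cacna2d3 and Scn8a lost the call without fed plate 2 (adjusted p = 0.178 and 0.0529). Scn8a lost the call without fed plate 3 (adjusted p = 0.0883). Cacna1d, Cacna2d1, Cacna2d3, Cacnb2 and Cacnb4 lost the call without the fasted plate (adjusted p = 0.0684, 0.154, 0.343, 0.0814 and 0.0822). Cacna1d, Cacna2d3, Cacnb4, Scn7a and Scn8a lost the call under at least 1 other alternative run (highest adjusted p = 0.0519 to 0.937). Cacna1h without fed plate 2 (1.62, adjusted p = 0.0161) and Cacna2d2 without fed plate 3 (1.27, adjusted p = 0.00906) passed the threshold.

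In 47 microglia or macrophage-like cells, 0 of 26 genes were higher (background 6.79%, edgeR) and 7 lower (background 9.95%). On fed plate 1 marker sums of the 10 cells went against that name: 8 endothelial markers summed to 12276 CPM there and 10 microglia or macrophage markers (1 at 0) to 2674 CPM, against 17051 to 25617 CPM on the other plates. With and without fed plate 1 the count was 7 and 6, all lower. The 7 were Cacng4 (-3.08), Scn7a (-3.71), Scn9a (2 transcripts), Cacna2d2 (2 transcripts), Cacna2d3 (-1.72), Cacna2d1 (-1.52) and Scn8a, which had 0 transcripts, a log2 difference of -2.89 or lower against a floor of 3 transcripts over the class. The median there was -1.21 against -0.40 over all genes, and -0.84 with the 3 genes at 0 transcripts set at that floor, and 14 of the 26 genes had an unadjusted p under 0.05. Cacna2d1 lost the call without fed plate 1 (adjusted p = 0.144). Cacna2d1, Cacna2d2 and Cacna2d3 lost the call without fed plate 2 (adjusted p = 0.0795, 0.0974 and 0.0765). Cacna2d2 and Cacna2d3 lost the call without fed plate 3 (adjusted p = 0.130 and 0.0967). Cacna2d1, Cacna2d2, Cacna2d3 and Scn9a lost the call without the fasted plate (adjusted p = 0.378, 0.131, 0.341 and 0.0503). Cacna2d1, Cacna2d2 and Cacna2d3 lost the call under at least 1 other alternative run (highest adjusted p = 0.0699 to 0.255).

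The leak channel complex sets the resting potential of neurons. Its genes were tested in each class against the remaining non-neuronal cells, and a difference between 1 named class and another was not tested. Tanycyte-like cells had 2 of 4 higher and 1 lower (12.1% higher and 17.3% lower over all genes), with Nalcn (1.51) and Unc80 (1.39) higher and Fam155a (-1.25) lower. Precursor-like cells had 3 of 4 higher and 0 lower (9.59% higher and 15.9% lower over all genes), with Fam155a (2.55), Unc79 (1.56) and Nalcn (1.29). Endothelial-like cells had 0 of 4 higher and 4 lower (11.3% higher and 20.2% lower over all genes), and VLMC-like cells 0 of 4 higher and 3 lower (7.16% higher and 11.9% lower over all genes). Astrocyte-like cells had 0 of 4 higher and 3 lower (12.5% higher and 17.6% lower over all genes), oligodendrocyte-like cells 0 of 4 higher and 4 lower (8.57% higher and 24.3% lower over all genes) and microglia or macrophage-like cells 0 of 4 higher and 2 lower (6.79% higher and 9.95% lower over all genes). With the same shares over all genes, tanycyte-like cells had 3 of 10 higher and 2 lower among sodium channel partners, led by Ank2 (2.11), Ank3 (-1.53) and Nrcam (2.37), and precursor-like cells 4 of 10 higher and 2 lower, led by Fgf14 (2.00) and Fgf12 (1.99). Among calcium channel partners, precursor-like cells had 2 of 7 higher and 2 lower, with the active-zone genes Rims1 (3.61) and Rims2 (0.87) higher, and tanycyte-like cells 1 of 7 higher and 0 lower. Of calcium pumps and exchangers, tanycyte-like cells had 0 of 10 higher and 3 lower and precursor-like cells 3 of 10 higher and 2 lower, with Atp2b3 (3.45) and Slc8a3 (3.00) among the higher.

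The fasted plate was set against the 3 fed plates within each class. In AgRP-like neurons, 2 of 34 genes were higher on the fasted plate (background 3.25%) and 3 lower (background 2%), with a median log2 difference of 0.02 against -0.02 over all genes. The fasted plate lay outside all 3 fed plates for each of the 5 genes. These neurons fell mostly into 3 clusters that followed the plates, 1 for fed plate 1, 1 shared by the other fed plates and 1 for the fasted plate. Their median depth was 26017, 30642.5 and 33164 transcripts per cell (fed) and 65352 (fasted). Of these neurons 7, 40 and 6 (fed) and 22 (fasted) were Xist-only cells. In results from that subset, fewer cells and sex makeup cannot be told apart. Fasting, plate, cell depth and sex makeup cannot be told apart here.

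Scn2b, a sodium beta subunit that raises channel number at the surface, was at 71.3, 53.0 and 63.2 CPM (fed) and 21.0 CPM (fasted), a log2 difference of -1.55 (SE 0.32, adjusted p = 0.00173). It was the 1 gene of the 5 still past the threshold with each fed plate left out and by DESeq2, but in Xist-only cells it was at -1.40 (adjusted p = 0.279), and none of the 5 passed there. Cacng5, the gene most raised in AgRP-like neurons, was at 148, 96.5 and 109 CPM (fed) and 63.6 CPM (fasted), a difference of -0.87 (SE 0.25, adjusted p = 0.0363), and the fasted plate was still above every plate of other neurons. Cacna2d2 was at 123, 149.6 and 119 CPM (fed) and 72.8 CPM (fasted), a difference of -0.82 (SE 0.24, adjusted p = 0.0327).

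Scn3a was at 242, 276 and 317 CPM (fed) and 459 CPM (fasted), a difference of 0.76 (SE 0.21, adjusted p = 0.0230). Hcn2 was at 19.1, 23.2 and 14.5 CPM (fed) and 41.4 CPM (fasted), a difference of 1.12 (SE 0.33, adjusted p = 0.0369). The 8 oligodendrocyte markers also summed to more in fasted AgRP-like neurons, 353.7 CPM against 152 to 219 CPM in fed ones, with 1 of the 8 at 0 on fed plate 3 and none at 0 elsewhere. In other neurons they summed to 368 CPM against 158 to 227 CPM, and Hcn2 was at 20.4, 21.3 and 17.3 CPM (fed) and 29.9 CPM (fasted). Other marker sums also moved with the fasted plate in AgRP-like neurons. The 6 pars tuberalis markers, none at 0 there, were at 1006 CPM against 195 to 374 CPM, 10 microglia or macrophage markers (1 at 0) at 82.7 against 11.7 to 21.5 CPM, 9 tanycyte markers (0 at 0) at 172 against 104 to 122 CPM, and 8 VLMC markers (2 at 0) at 33.3 against 86.1 to 123 CPM. The 9 neuron markers summed to 3480 CPM on the fasted plate and 4209 to 4965 CPM on the fed plates, and the 6 AgRP markers to 13998 and 8172 to 10551 CPM. The part of other cells' RNA in the 5 results was not tested. Cacng5 and Hcn2 lost the call without fed plate 1 (adjusted p = 0.0992 and 0.0685). Cacna2d2 and Scn3a lost the call without fed plate 2 (adjusted p = 0.188 and 0.177). Cacna2d2, Cacng5, Hcn2 and Scn3a lost the call by DESeq2 (adjusted p = 0.0747 to 0.527). Cacna2d2, Cacng5, Hcn2, Scn2b and Scn3a lost the call in Xist-only cells (adjusted p = 0.199 to 0.667). Cacna2d2 and Hcn2 lost the call under at least 1 other alternative run (highest adjusted p = 0.0529 to 0.0535). Cacna2d3 without fed plate 1 (-0.69, adjusted p = 0.0360), Cacna2d1 without fed plate 1 (0.73, adjusted p = 0.0128) and Scn1a without fed plate 3 (1.32, adjusted p = 0.000266) passed the threshold.

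Among abundant channel genes of AgRP-like neurons, these did not pass: Cacna1e (0.23, adjusted p = 0.616), Cacna2d1 (0.63, adjusted p = 0.0660), Cacnb2 (0.46, adjusted p = 0.224), Cacng2 (0.45, adjusted p = 0.272) and Scn3b (-0.63, adjusted p = 0.190). Among partners, the HCN trafficking gene Pex5l was at 23.3, 31.0 and 39.4 CPM (fed) and 123 CPM (fasted), a log2 difference of 2.05 (SE 0.25, adjusted p = 6.61e-07). Fgf13, which binds sodium channels, was at 243, 244 and 283 CPM (fed) and 491 CPM (fasted) (0.97, SE 0.20, adjusted p = 0.00215), as 1 of 9 sodium channel partners. Of 9 calcium pumps and exchangers, Slc8a1 rose (1.21, adjusted p = 0.00804) and Slc8a2 fell (-1.24, adjusted p = 0.00779), and none of 4 leak complex genes and 9 calcium channel partners passed.

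**Figure D5:**
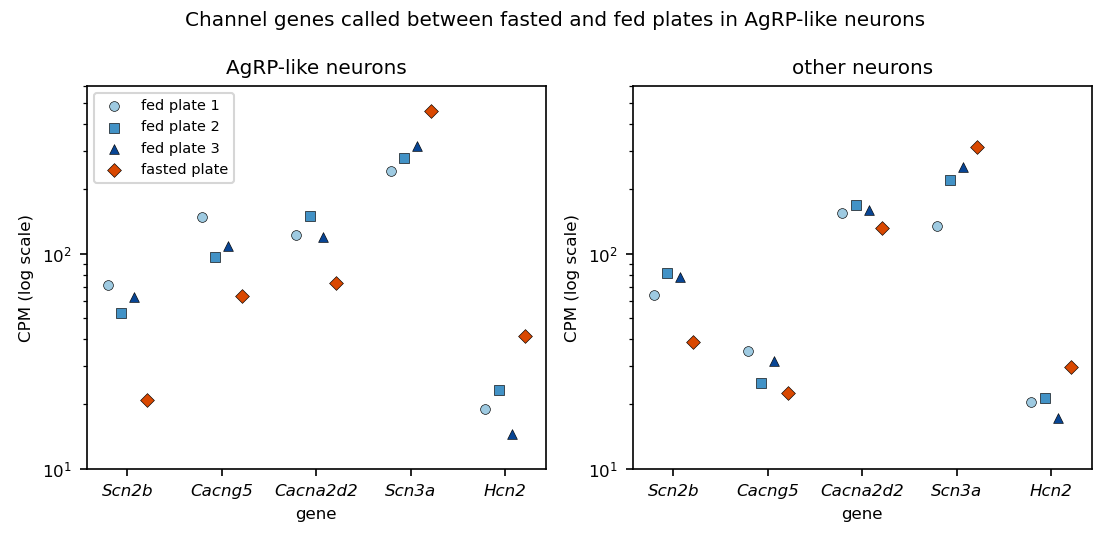
Level (CPM, log axis) of the 5 channel genes called between the fasted and the fed plates in AgRP-like neurons (left) and the same genes in other neurons (right), with 1 point per plate. At left the fasted point lies above the 3 fed points for Scn3a and Hcn2 and below them for Scn2b, Cacng5 and Cacna2d2.

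In other neurons 0 of 35 genes passed (background 0.143%, edgeR), with 4 at an unadjusted p under 0.05 and 0 by DESeq2. The 5 genes of smallest p included Cacna1e (0.82, adjusted p = 0.352), Cacnb3 (-1.05, adjusted p = 0.353), Scn2b (-0.94, adjusted p = 0.357) and Cacng8 (1.05, adjusted p = 0.562). The family leaders there were Cacna1c (0.29, adjusted p = 0.761), Cacna2d1 (0.02, adjusted p = 0.994), Cacnb2 (0.43, adjusted p = 0.649), Cacng4 (-0.37, adjusted p = 0.660), Scn2a (0.33, adjusted p = 0.706) and Scn3b (-0.27, adjusted p = 0.822). Without fed plate 1, Cacna1e passed (0.68, adjusted p = 0.0420). Scn2b in other neurons was at 64.4, 80.9 and 77.9 CPM (fed) and 38.9 CPM (fasted), so the fasted plate was the lowest there too. The makeup of other neurons also differed by plate. Premammillary-like cells numbered 0, 9 and 5 (fed) and 0 (fasted), and those led by Ebf3 2, 1 and 11 (fed) and 0 (fasted). The 5 POMC markers (1 at 0 on fed plate 3 and on the fasted plate) summed to 3879, 1466 and 1775 CPM (fed) and 1331 CPM (fasted). The part of this makeup in the fasting and interaction results was not tested.

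The difference between the fasting effects in the 2 neuron classes was tested as an interaction. Of 35 genes 0 passed (background 1.15%, edgeR), with 3 at an unadjusted p under 0.05 and 0 by DESeq2. The 5 genes that differed in AgRP-like neurons had interaction values of 0.56 (adjusted p = 0.701) for Hcn2, 0.11 (adjusted p = 0.896) for Scn3a, -0.59 (adjusted p = 0.635) for Scn2b, -0.40 (adjusted p = 0.765) for Cacng5 and -0.53 (adjusted p = 0.414) for Cacna2d2. Smallest p belonged to Cacna1e (-0.59, adjusted p = 0.161), Cacna2d3 (-0.63, adjusted p = 0.191), Cacna2d2, Scn9a (-0.38, adjusted p = 0.472) and Scn1a (0.70, adjusted p = 0.508). Without fed plate 1, Cacna2d1 passed (0.93, adjusted p = 0.00215). Of the partners, Pex5l (1.93, adjusted p = 0.00241) and Fgf13 (0.83, adjusted p = 0.0454) had a larger fasting difference in AgRP-like neurons, and Fgf14 (-0.74, adjusted p = 0.0281) a lower one.

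In tanycyte-like cells 0 of 22 genes were higher on the fasted plate (background 1.84%) and 1 lower (background 1.24%). Scn7a was at 1075, 666 and 1075 CPM (fed) and 291 CPM (fasted), a log2 difference of -1.69 (SE 0.29, adjusted p = 3.64e-06). The Col25a1 cluster gave 11, 7 and 19 fed cells and 1 fasted cell. Outside that cluster Scn7a was at 379, 125 and 246 CPM (fed) and 171 CPM (fasted), so the fasted plate lay among the fed plates, and the difference there was -0.49 (adjusted p = 0.505). In Xist-only cells Scn7a did not pass. That subset held 0, 2 and 1 (fed) and 1 (fasted) cells of the Col25a1 cluster, so it is not a check apart from leaving out that cluster. Fed plate 1, with 2 tanycyte-like cells there, was under the limit of 5 cells and did not enter. Leading genes of 4 other families did not pass: Cacnb2 (0.24, adjusted p = 0.720), Cacng4 (-0.34, adjusted p = 0.636), Cacna2d3 (0.61, adjusted p = 0.258) and Cacna1a (0.60, adjusted p = 0.295). Among partners, Fgf13 (1.20, adjusted p = 0.0370) was higher and Calm3 (-0.94, adjusted p = 0.0476) lower.

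In astrocyte-like cells 0 of 12 genes passed (background 0.601%, edgeR, 1 at an unadjusted p under 0.05), with the smallest p for Cacnb2 (-1.43, adjusted p = 0.360), Cacng4 (-0.91, adjusted p = 0.782), Cacna2d3 (-1.12, adjusted p = 0.801), Cacna1d (0.69, adjusted p = 0.808) and Cacna2d1 (-1.11, adjusted p = 0.928), and Scn8a at -0.48 (adjusted p = 0.928). In endothelial-like cells 0 of 3 passed (background 0.0154%, 0 at an unadjusted p under 0.05): Cacna1a (0.68, adjusted p = 0.834), Cacna1c (0.14, adjusted p = 0.977) and Cacna1e (0.02, adjusted p = 0.998). In VLMC-like cells 0 of 8 passed (background 1.06%, 2 at an unadjusted p under 0.05). Scn7a and Cacng4 had 0 transcripts in the 13 VLMC-like cells of the fasted plate, and Cacna1e (1.28, adjusted p = 0.395), Cacna1c (1.18, adjusted p = 0.430) and Scn2a (1.58, adjusted p = 0.600) were next by p. Without fed plate 3, VLMC-like Cacna1c passed (2.32, adjusted p = 0.000697). DESeq2 called 0 channel genes in these 3 classes.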

How the data were processed

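Single cells from 3 fed plates and 1 fasted plate were counted by CEL-seq2, with 384 wells per plate and 1 cell sorted into each well. The authors deposited, per plate, a table of expected counts: UMI counts per gene and well corrected for 6-base UMIs that recur among the 4096 possible. Trim Galore, STAR and the mm10 genome are named, per the submitters' processing notes. Whether intronic reads or strand entered the counting was not given in the sources used here. The deposited values were used with that correction left in, rounded to whole transcripts per gene and well. As a check, each deposited value matched the corrected value of a whole number of UMIs within 1e-06. Every plate uses the same 384 well barcodes, so shared barcodes carry no meaning.

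Wells with at least 1000 transcripts and at most 30% mitochondrial transcripts were kept, which left out 238 wells under 1000. Cells were clustered with scanpy 1.11.5 and leidenalg 0.10.2 under Python 3.11.15 (2000 genes, 30 components, 10 neighbours, resolution 1.5), and neurons other than AgRP-like were clustered again (1500 genes, 25 components, 8 neighbours, resolution 1.0). The 44 channel genes, the partner genes and sex-linked genes took no part, so the class comparisons test genes that did not shape the classes. A cluster was named where at least 3 markers of 1 list were raised, and held to be neuronal above a share of neuron marker transcripts that was chosen on these cells. The 35 cells of a cluster between the neuronal and non-neuronal ranges were not assigned and entered no comparison, and 29 cells stayed unnamed among the non-neuronal cells. No doublet caller was run.

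The rounded counts were summed per class and plate and tested with edgeR 4.0.16 (limma 3.58.1, R 4.3.3). This was a quasi-likelihood test with robust spread estimates shared across genes, Benjamini-Hochberg adjustment over all genes tested and a threshold of 0.05. Plate was the block where 2 classes of the same plates were compared. Class comparisons needed at least 5 cells on a plate and at least 3 plates, and fasting comparisons 10 cells and at least 2 fed plates. Adjusted p and log2 difference always come from this fit unless DESeq2 1.42.0 is named. CPM levels are those of the summed class. Plots were made with matplotlib 3.10.9. On simulated counts the fasting test in AgRP-like neurons recovered 53.5% of genes changed by 1 on the log2 scale and 100% of those changed by 2 (12845 genes), and the neuron test 97.1% and 100% (15441 genes). The simulation gave all genes the same spread, held no plate differences and changed only genes with many transcripts. These rates are therefore not the power of the tests on the real plates, which was not tested.

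The channel genes and the partner and marker lists were chosen with earlier results of these data known. A few genes are not reported here, though counts, medians and sums include them. The other genes past the threshold are named in each comparison, with values for up to 12 per direction, or the 5 of smallest p where none passed, and up to 4 partner genes per list. Alternatives were DESeq2, its size factors, no filter on low counts, wells with at least 2000 transcripts, resolutions 1.0 and 2.0, Xist-positive cells without Y-linked transcripts alone, each plate left out, no replicate block, and all remaining cells as the reference of a non-neuronal class. Leaving out the Col25a1 or the Lcn2 cluster, and counting the cells not assigned as neurons, were added after seeing the data.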

Additional observations from a re-analysis of the deposited data

How the results depend on the processing

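Counts below are channel genes called. Neurons against non-neuronal cells gave 32 and stayed between 31 and 34 under the alternatives run. For AgRP-like against other neurons (16), leaving out 1 plate gave 12 to 16. GABA against glutamate clusters (11) gave 4 with DESeq2, 3 in Xist-only cells (no Y-linked transcript), and 5 to 9 with 1 plate left out. The non-neuronal classes (92 over 7 comparisons) gave 59 in Xist-only cells (6 comparisons), 170 against all remaining cells (9 higher, 161 lower), and 59 to 87 with 1 plate left out. Fasted against fed in AgRP-like neurons (5) gave 1 with DESeq2, 3 with no filter, 0 in Xist-only cells and 3 to 6 with 1 fed plate left out. Other neurons (0) gave 0 to 1 and the interaction (0) gave 0 to 1 with 1 fed plate left out. Fasting in the non-neuronal classes (1) gave 0 in Xist-only cells, 0 without the Col25a1 cluster (chosen after seeing the data) and 1 to 2 with 1 fed plate left out.

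With plate as a replicate block the class comparisons gave the counts above. With no replicate block, AgRP-like against other neurons gave 8, GABA against glutamate clusters 5 and the non-neuronal classes 71. No paired analysis was possible because the fasted group is 1 plate, so fasted against fed has no pairs.

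Against all remaining cells, neurons included, 10 differences changed sign: in tanycyte-like cells Cacnb4 (-0.049), Scn8a (-0.11), Cacna1a (-0.20) and Cacng5 (-1.11), in astrocyte-like cells Cacna1d (-0.033), in endothelial-like cells Cacna1e (-1.08), in VLMC-like cells Scn2b (-0.36), and in precursor-like cells Cacna1e (-0.83), Scn3a (-0.19) and Scn2a (-0.41). That alternative adds neurons to the reference by its construction; for the other changed counts the cause was not tested. Of 157 calls, 77 held under every alternative run. Left out as alternatives that could not be fitted were microglia-like Xist-only cells and the astrocyte fasting comparison without fed plate 2 or 3.

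Depth limits the small classes: a gene with 0 transcripts in the microglia-like cells can lie below 9.47 CPM, and in VLMC-like cells of the fasted plate below 41.7 CPM (3 transcripts). The fasted group is 1 plate, so its own spread is unknown and is assumed to equal that of the fed plates.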

Other observations

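Vessel-wall classes with too few cells for a test held high levels of L-type channel transcripts, given from counts pooled over plates. In 27 pericyte-like cells Cacna1c was at 1439.7 CPM (95% interval 1213 to 1696) and its partner Cacnb2 at 534 CPM (95% interval 399.7 to 698). In 10 smooth muscle-like cells Cacna1c was at 831 CPM (95% interval 624 to 1084), and the T-type pore Cacna1h at 185 CPM. Scn4b, a sodium beta gene that passed the filter in no comparison, was at 77.0 CPM (95% interval 24.99 to 179.6) there, on 5 transcripts. The intervals cover counting error only.

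In 42 pars tuberalis-like cells, endocrine cells of the pituitary stalk that came from fed plate 1 (21), fed plate 3 (1) and the fasted plate (20), the leading channel genes were Cacnb2 at 619 CPM (95% interval 566 to 677) and Cacna2d1 at 489.7 CPM (95% interval 442 to 541). Scn8a was at 158 CPM. In 24 ependymal-like cells, which carry cilia, Cacnb2 was at 293 CPM (95% interval 223 to 379) and Cacna1d at 244 CPM. Cacna1s, the pore of skeletal muscle, was at 69.6 CPM (95% interval 38.1 to 117) in ependymal-like cells on 14 transcripts, and passed the filter in no comparison.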
